A study of Homo sapiens with 6 samples.

Results

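The collagen genes of 786-O cells were compared between copper-adapted and control cultures. Their rows were chosen by name alone, as every symbol made of COL, a number, A and a number. The table of 25987 named genes held 44 such rows, from COL1A1 to COL28A1, and 21 of them reached at least 10 counts in 3 libraries. Each group had 3 libraries of total RNA. 786-O is a widely used cell line from a human clear cell renal carcinoma. It has no working VHL gene, and its genotype is given as wild type in all 6 samples. The copper group grew chronically in medium whose serum had been loaded with CuSO4 overnight in the cold, so that the metal was bound to serum proteins. The labels read 30, 31 and 32 uM chronic Cu for copper replicates 1, 2 and 3, the series text names 30 uM, and the 3 were taken as 1 group. The control group, labelled No Cu control, received serum handled alike but for the metal. Both groups were kept in DMEM/F12 with serum. The labels do not say whether the cultures of a group were adapted separately, so p-values measure the spread between these libraries only. The data describe 1 cell line in culture.

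Collagens are secreted or membrane proteins built from chains that wind into a triple helix, whose repeats carry glycine at every turn. Fibril-forming collagens give tissue its tensile strength, type IV collagen forms the sheet-like network of basement membranes, and type VI forms beaded microfibrils. Chains are hydroxylated and glycosylated in the endoplasmic reticulum, exported in large carriers, trimmed outside the cell, and crosslinked by lysyl oxidases, which are copper enzymes. In the kidney, tubule cells rest on a type IV collagen network, while fibrillar collagen is mostly a product of fibroblasts.

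Library totals ran from 16301772 to 25079913 counts. Replicate 3 stood apart in both groups, and further in copper. Against replicates 1 and 2 of its group, its chi-square per degree of freedom over genes was 62.7 and 65.9 in copper. In control it was 22.2 and 21.3. Between replicates 1 and 2 the value was 5.91 in copper and 5.35 in control. Of 11 markers of renal tubule and clear cell carcinoma, 10 had at least 10 counts in 3 libraries, PAX8 and PAX2 among them, while CA9 had 0 to 2 counts. The renal list summed to at least 4757 CPM (counts scaled to library size) in every library, and the lists of other cell types to less. Most of the renal sum came from VIM, at a mean of 3125 CPM, so the sum mainly follows that gene. PAX8 was at a mean of 136 CPM and PAX2 at 7.67. The 8 fibroblast and pericyte markers summed to 15.7 to 21.4 CPM in copper and 18.3 to 19.5 CPM in control. Of these, 5 had at least 10 counts in 3 libraries, among them RGS5 at 67 to 164 counts and PDGFRB at 58 to 136. DCN had 0 to 4 counts and PDGFRA 0 to 6. The 5 endothelial markers summed to 0.736 to 1.76 CPM in copper and 0.869 to 2.34 CPM in control. Of these, 1 had at least 10 counts in 3 libraries, KDR at 3 to 26 counts. TEK had 3 to 16 counts and PECAM1 0 to 3. The 4 blood markers summed to 0.429 to 0.673 CPM in copper and 0.483 to 0.676 CPM in control. Among them 1 had at least 10 counts in 3 libraries, CD14 at 5 to 10 counts. In bulk RNA, fewer cells that make a collagen and less of its RNA per cell cannot be told apart.

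Type IV collagen led the repertoire. COL4A1 and COL4A2, the chains of the widespread type IV collagen, held 44.2% to 57.5% of all collagen counts in a library. With COL7A1, COL8A1 and COL18A1 they held 83.1% to 89.3%. The 2 type IV genes lie head to head on chromosome 13, COL4A1 (Entrez 1282; 110190741 to 110307157) on the minus strand and COL4A2 (Entrez 1284; 110307284 to 110513209) on the plus strand, with 126 bases between their starts. The stretch that both promoters share is printed because the 2 most abundant collagen genes start within it. It is read 5′ to 3′ on the strand of COL4A2, from RefSeq GRCh38.p14, chr13:110307108-110307333, and capitals mark the bases between the 2 starts.
COL4A1/COL4A2 shared stretch: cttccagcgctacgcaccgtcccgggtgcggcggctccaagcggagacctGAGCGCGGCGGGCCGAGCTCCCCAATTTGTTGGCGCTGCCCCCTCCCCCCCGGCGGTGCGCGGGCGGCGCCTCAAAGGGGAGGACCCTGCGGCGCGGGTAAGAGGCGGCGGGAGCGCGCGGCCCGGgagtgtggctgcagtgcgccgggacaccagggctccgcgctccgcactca
The capitals hold G or C at 80.2% of positions. On either strand they hold 1 match to CCAAT and 1 to GGGCGG, which do not overlap each other. Of 27305 promoter windows of 300 bases, 35.7% hold CCAAT or its reverse complement ATTGG, and 44.6% hold GGGCGG or CCGCCC. A match describes these letters and is no measure of binding.

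**Figure D1:**
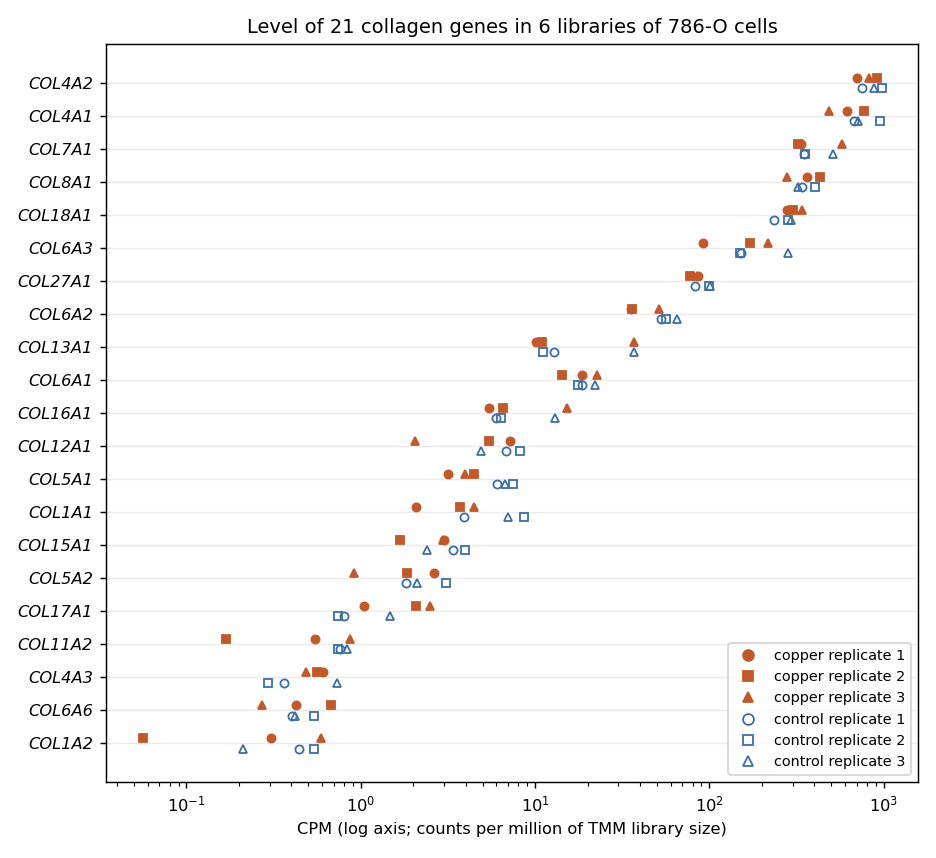
CPM of the 21 reported collagen genes on a log axis, 1 point per library, filled for copper and open for control, with the marker shape giving the replicate number. COL4A2 and COL4A1 lead at means of 839 and 699 CPM, and COL6A2 and COL5A1 are the genes whose copper points all lie below all control points.

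Divided by transcript length, the mean level over the 6 libraries was 129 CPM per kb for COL4A2 and 106 for COL4A1. COL8A1, a short-chain network collagen of subendothelial matrix, followed at 62.5 CPM per kb. COL7A1, the anchoring fibril of the skin basement membrane, stood at 44.03 and COL18A1, the precursor of endostatin, at 43.8. The type VI chains came next, COL6A3 at 16.5 and COL6A2 at 14.3, then the fibril-forming COL27A1 at 11.4. The main fibrillar collagens of stroma were scarce. COL1A1 was at 0.740 CPM per kb and its partner chain COL1A2 at 0.0661, with 1 to 11 counts in a library. COL3A1 was among the 23 rows below the minimum. None of those 23 had more than 14 counts in a library, and together they gave 457 counts, 0.131% of all collagen counts.

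No collagen gene was called between copper and control in the fit on group alone, by DESeq2 or with replicate number as a block. Of the 21 reported genes, 19 passed the expression filter of the fit, and COL6A6 and COL1A2 did not. By edgeR's quasi-likelihood test, 0 of the 19 had an adjusted p under 0.05, the share over all 12944 genes tested being 0%. At an unadjusted p under 0.05 there were 3 of 19, COL5A1, COL6A2 and COL1A1, all lower in copper, against 3.52% of all genes. DESeq2 also called 0 of the 19, against 0.209% of all genes. With replicate number as a block, 0 of 19 had an adjusted p under 0.05 (0.170% of all genes), and 6 of 19 had an unadjusted p under 0.05 (8.41% of all genes). Of these 4 were lower in copper (4.24% of all genes) and 2 were higher. With the block and each library's trends with GC content and transcript length removed, edgeR called 3 of 19, against 1.66% of all genes. In replicates 1 and 2 alone it called 1 of 20, against 0.856% of all genes. In the fit on group alone, the log2 fold change (copper over control) was below 0 for 13 of the 19, against 48.6% of all genes. The median of the 19 was -0.18, beside 0.0052 for all genes. Within replicates 1, 2 and 3 the median difference was -0.10, -0.30 and -0.21 on the log2 scale. Over the 19 to 21 collagens tested with a library left out, the median moved to -0.0817 without copper replicate 1, to -0.0824 without control replicate 3 and to -0.312 without control replicate 1.

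**Figure D2:**
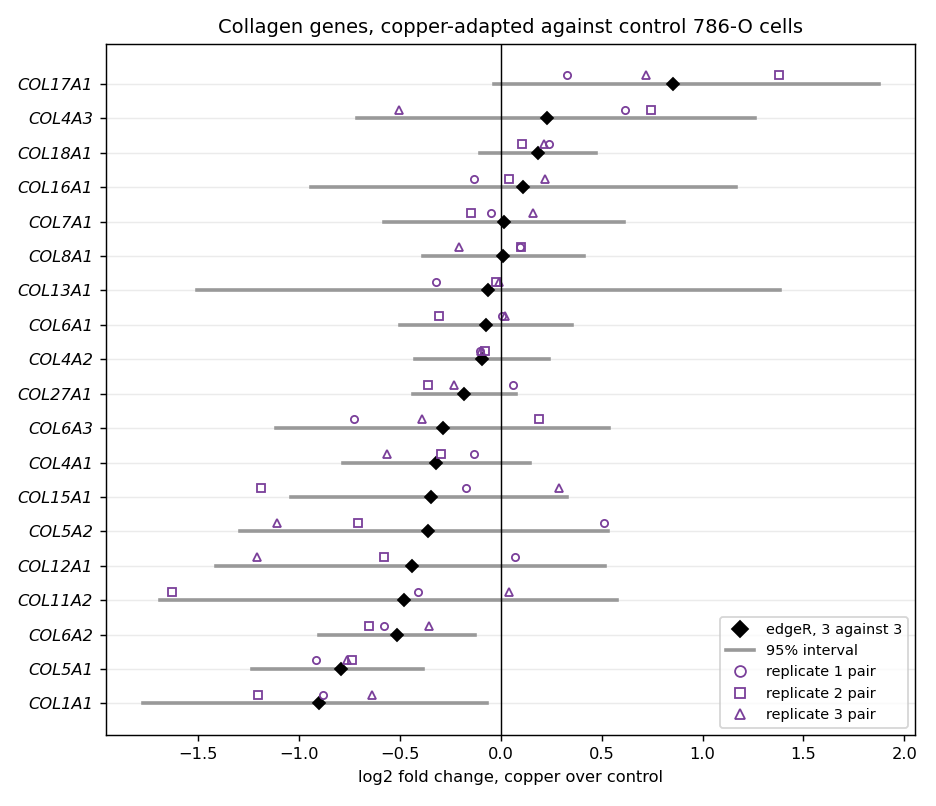
Log2 fold change of copper over control for the 19 tested collagen genes (diamonds) with its 95% interval (grey bars) and the difference within each same-numbered pair of libraries (open markers). COL1A1, COL5A1 and COL6A2 lie lowest, at -0.90, -0.79 and -0.51, and all 3 of their pairs are below 0.

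Summed over the 21 genes, collagen RNA was 2557, 3080 and 2944 CPM in copper replicates 1, 2 and 3 and 2695, 3329 and 3269 CPM in control. The groups overlapped, with means of 2860 ± 271 and 3098 ± 350.1 CPM (SD, n = 3). The summed level in copper replicates 2 and 3 lay above that of control replicate 1.

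Among the fibril-forming collagens, the 2 with the lowest copper to control ratios were those of types V and I. COL5A1 (Entrez 1289; chromosome 9, 134641805 to 134844842) encodes the chain of type V collagen that starts and limits the width of collagen fibrils. It was at 3.17, 4.43 and 3.94 CPM in copper replicates 1 to 3 and at 6.07, 7.45 and 6.76 CPM in control. Every copper library lay below every control library, as for 2 of the 19 genes against 5.35% of all genes. No collagen gene lay wholly higher in copper, 0 of 19 against 5.45%. Its log2 fold change was -0.79 (SE 0.18, 95% interval -1.24 to -0.38), with an edgeR adjusted p of 0.804. With the block the adjusted p was 0.114, and with DESeq2 it was 0.106. When the block was combined with removal of each library's trends with GC content and transcript length, edgeR called it (log2 fold change -0.73, adjusted p 0.0290). Its counts were 52 to 79 in copper and 129 to 152 in control, so counting error alone is sizeable.

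COL1A1 (Entrez 1277; chromosome 17, 50184101 to 50201631), the major chain of type I collagen, was at 2.07, 3.70 and 4.48 CPM in copper and 3.90, 8.68 and 7.02 CPM in control. Copper replicate 3 lay above control replicate 1, but the copper library was the lower one in all 3 same-numbered pairs, by 0.88, 1.21 and 0.64 on the log2 scale. The log2 fold change was -0.90 (SE 0.37, 95% interval -1.78 to -0.07), with an edgeR adjusted p of 1.00. It was 0.130 with the block and 0.0264 after that combined correction. COL1A2 had 5, 1 and 11 counts in copper and 11, 11 and 4 in control, and a difference was not detectable at this depth.

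The other fibril-forming genes did not separate the groups. COL27A1, a chain of cartilage fibrils, was at 86.1, 77.8 and 85.3 CPM in copper and 82.7, 99.8 and 100.2 CPM in control. Its log2 fold change was -0.18 (95% interval -0.44 to 0.07). COL5A2, the partner chain of COL5A1, ran from 0.917 to 2.62 CPM in copper and from 1.81 to 3.09 CPM in control. It differed in sign among the pairs, at 0.51, -0.71 and -1.11. The log2 fold change of COL5A2, -0.36, was -0.714 without copper replicate 1 and -0.0558 without copper replicate 3. COL11A2 ran from 0.168 to 0.863 CPM and from 0.735 to 0.838 CPM, with a log2 fold change of -0.48 (95% interval -1.69 to 0.58). It was -0.956 without copper replicate 3 and -0.119 without copper replicate 2.

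COL6A2 (Entrez 1292; chromosome 21, 46098112 to 46132848), a chain of the type VI microfibril, was at 35.4, 35.8 and 51.1 CPM in copper and 53.0, 56.5 and 65.5 CPM in control. All copper libraries lay below all control libraries, and replicate 3 was the highest of each group. The log2 fold change was -0.51 (SE 0.17, 95% interval -0.90 to -0.13), and edgeR's adjusted p was 1.00. It was 0.123 with the block and 0.00428 after that combined correction. In replicates 1 and 2 alone edgeR called it, at -0.62 with an adjusted p of 0.00311. It was the only collagen gene called there, 1 of 20 tested, where 0.856% of all genes were called. That combined correction called COL6A2, COL5A1 and COL1A1, 3 of 19, against 1.66% of all genes.

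COL6A1, which lies 93.1 kb upstream of COL6A2 on the same strand and encodes its partner chain, was at 18.6, 14.2 and 22.5 CPM in copper and 18.5, 17.6 and 22.2 CPM in control. The groups overlapped, and the log2 fold change was -0.07 (95% interval -0.50 to 0.35). The ratio of COL6A1 to COL6A2 per transcript length was 0.429, 0.323 and 0.360 in copper and 0.286, 0.254 and 0.276 in control. Each copper value exceeded each control value, and that difference was not tested. Of the chain ratios computed, only this one separated the groups. The ratio of COL6A3 to COL6A2 was 0.831, 1.53 and 1.36 in copper and 0.921, 0.851 and 1.40 in control. That of COL5A1 to COL5A2 was 1.01, 2.00 and 3.59 in copper and 2.80, 2.02 and 2.70 in control. COL6A3, the longest type VI chain, was at 91.4, 170 and 216 CPM in copper and 152, 149 and 284 CPM in control. It was lower in copper in replicates 1 and 3 by 0.73 and 0.39 and higher in replicate 2 by 0.19, and its log2 fold change of -0.29 had an interval from -1.12 to 0.54. Without control replicate 3 it was 0.0829.

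**Figure D3:**
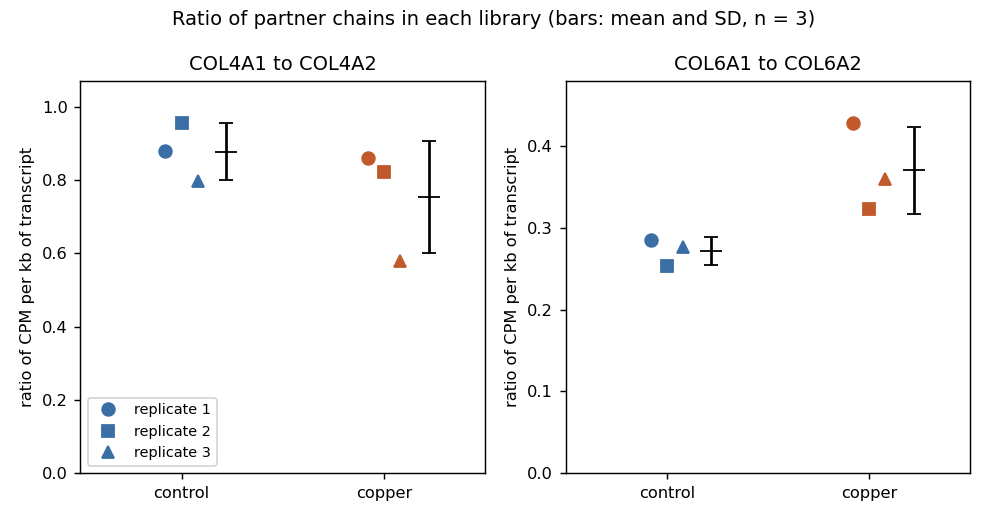
Ratio of CPM per kb of transcript between partner chains in each library, COL4A1 to COL4A2 (left) and COL6A1 to COL6A2 (right), with the mean and SD of 3 libraries beside the points. The COL6A1 to COL6A2 ratio is above 0.32 in every copper library and below 0.29 in every control library, and copper replicate 3 has the lowest COL4A1 to COL4A2 ratio at 0.578.

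Type IV collagen gave the most counts and so the least counting error. COL4A2 was at 698, 919 and 821 CPM in copper and 749, 970 and 877 CPM in control. The copper library was lower in each pair by 0.10, 0.08 and 0.10, while the groups overlapped, since libraries within a group differed by more than that. Its log2 fold change was -0.09 (SE 0.14, 95% interval -0.42 to 0.24), and 0.00433 without copper replicate 1. COL4A1 was at 612, 770 and 483 CPM in copper and 671, 945 and 714 CPM in control. Copper was lower in each pair, by 0.13, 0.30 and 0.56, most of all in replicate 3, whose copper library was the lowest of the 6. The log2 fold change was -0.32 (SE 0.20, 95% interval -0.78 to 0.14), with an edgeR adjusted p of 1.00, or 0.430 with the block. Without control replicate 2 it was -0.155, and without copper replicate 2 it was -0.507. The ratio of COL4A1 to COL4A2 per transcript length was 0.861, 0.822 and 0.578 in copper and 0.879, 0.956 and 0.799 in control. It was lower in copper in each pair, and the groups overlapped. COL4A3, a chain of the mature glomerular network, had 6 to 14 counts in a library and a log2 fold change of 0.23, or 0.0332 without control replicate 2 and 0.594 without control replicate 3. COL6A6, a further type VI chain, had 5 to 12 counts and was not tested in the fit of all libraries.

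Of the other genes at high levels, COL18A1, a basement membrane proteoglycan, was at 278, 302 and 341 CPM in copper and 236, 282 and 294 CPM in control. It was higher in copper in all 3 pairs by 0.24, 0.10 and 0.21, and copper replicate 1 lay below control replicates 2 and 3. The log2 fold change was 0.18 (SE 0.12, 95% interval -0.10 to 0.47), with an adjusted p of 1.00 by edgeR and 0.0557 after that combined correction. Without control replicate 1 the log2 fold change of COL18A1 was 0.0897. COL7A1 was at 337, 321 and 575 CPM in copper and 349, 355 and 514 CPM in control. Its log2 fold change was 0.02 (95% interval -0.58 to 0.61), and it turned to -0.304 without copper replicate 3. COL8A1 was at 364, 432 and 278 CPM in copper and 341, 402 and 322 CPM in control, with a log2 fold change of 0.01 (95% interval -0.39 to 0.41), or -0.147 without copper replicate 2. In both genes the difference between groups was smaller than that between replicate 3 and the other libraries.

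Among the genes at lower levels, the fibril-associated COL16A1 was at 5.43, 6.56 and 15.2 CPM in copper and 5.95, 6.37 and 13.0 CPM in control. The transmembrane COL13A1, found at sites of cell adhesion, was at 10.2, 10.9 and 36.8 CPM in copper and 12.7, 11.1 and 37.0 CPM in control. Both genes were higher in replicate 3 than in the other libraries of each group, and their log2 fold changes were 0.11 and -0.06. That of COL16A1 was -0.473 without copper replicate 3 and 0.551 without control replicate 3, and that of COL13A1 was -0.924 and 0.690. COL12A1, which decorates fibril surfaces, was at 7.19, 5.44 and 2.05 CPM in copper and 6.84, 8.19 and 4.87 CPM in control. It was lowest in replicate 3 of each group. Its log2 fold change was -0.44 (95% interval -1.41 to 0.52), or -0.0761 without copper replicate 3 and -0.816 without copper replicate 1.

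COL17A1, a hemidesmosome collagen that anchors epithelial cells to the basement membrane, had the highest copper to control ratio. It ran from 1.04 to 2.48 CPM in copper and from 0.735 to 1.47 CPM in control. Copper was higher in each pair by 0.33, 1.38 and 0.72, and copper replicate 1 lay below control replicate 3. Its log2 fold change was 0.85 (SE 0.41, 95% interval -0.03 to 1.87), with an edgeR adjusted p of 1.00, or 0.453 with the block. COL15A1, a multiplexin of basement membrane zones, ran from 1.68 to 2.99 CPM in copper and from 2.41 to 3.97 CPM in control, a log2 fold change of -0.35 (95% interval -1.04 to 0.33). That value was -0.131 without copper replicate 2 and -0.512 without control replicate 3. In all, copper was the lower library in every pair for 6 of 19 genes, against 17.0% of all genes. These were COL4A1, COL4A2, COL5A1, COL1A1, COL6A2 and COL13A1. It was the higher one in every pair for COL18A1 and COL17A1, 2 of 19, against 17.7% of all genes.

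Replicate 3 differed from the other libraries in many of the same collagens in both groups. Measured as log2 CPM in replicate 3 minus the mean of replicates 1 and 2, COL13A1 was shifted by 1.79 in copper and 1.63 in control, COL16A1 by 1.33 and 1.06, and COL7A1 by 0.81 and 0.55. COL12A1 was shifted the other way, by -1.56 and -0.61, COL8A1 by -0.51 and -0.20, and COL4A1 by -0.51 and -0.16. COL4A2 stayed near 0, at 0.04 in both groups. Of the 19 genes, 13 were higher in replicate 3 of both groups and 4 were lower in both, beside 37.3% and 36.5% of all genes. The shift tended to be higher for transcripts of higher GC content. Across the 19 collagens, Spearman's rho between GC content and shift was 0.54 in copper and 0.36 in control, and across 12845 tested genes it was 0.57 and 0.20. With transcript length, rho across the 19 was -0.35 and -0.17. Genes are not independent replicates, and all these points come from the same 6 libraries. Collagen transcripts had a median GC content of 60.3%, against 48.3% for all tested genes, and a median length of 6586 bases against 3376. The part of GC content or length in the differences between copper and control was not tested for single genes beyond the corrected fit given above.

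**Figure D4:**
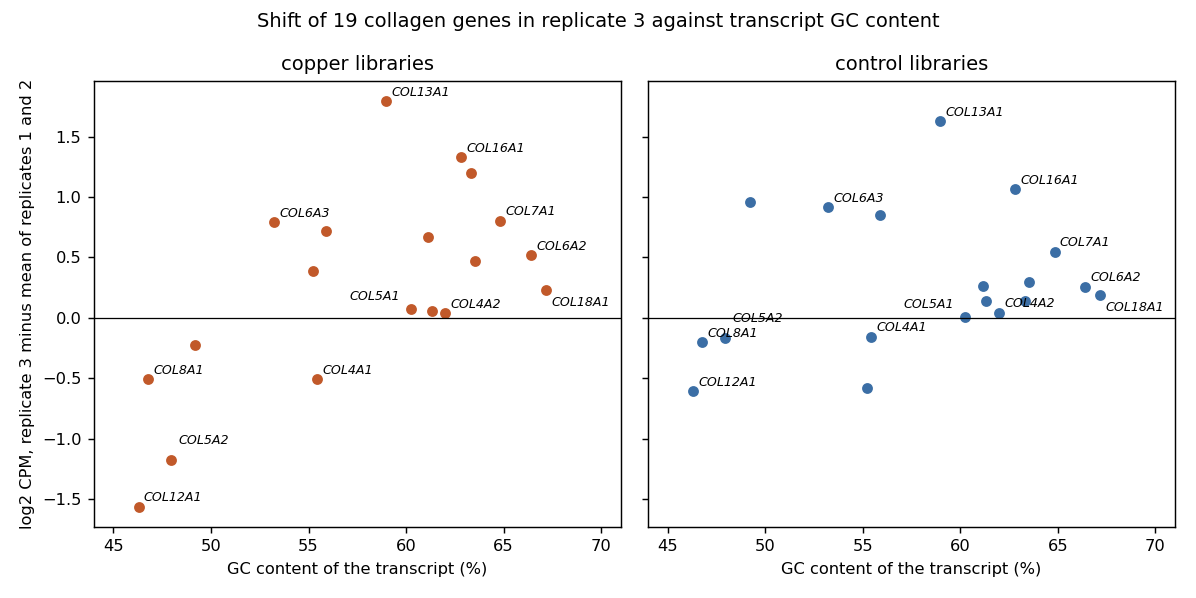
Log2 CPM in replicate 3 minus the mean of replicates 1 and 2 against the GC content of the transcript for the 19 tested collagen genes, in copper (left) and control (right). COL12A1 and COL8A1 lie low on the left of each panel, and COL13A1 and COL16A1 lie highest, with rho of 0.54 in copper and 0.36 in control.

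The enzymes that modify collagen in the endoplasmic reticulum differed little between groups. Of 20 genes, 19 were tested, 0 were called higher and 0 lower, and the median log2 fold change was -0.04. Over all the lists that follow, 0 genes were called by edgeR with or without the block, against 0% and 0.170% of all genes. Neither this list nor the later ones were read from the block fit with length and GC trends removed, which called 1.66% of all genes. PLOD2, the lysyl hydroxylase that prepares telopeptides for crosslinking, was at 1440 ± 250.4 CPM in copper and 1671 ± 72.6 CPM in control (SD, n = 3). CALR, a chaperone of the endoplasmic reticulum, was at 1265 ± 61.4 and 1223 ± 67.9 CPM. FKBP14, a collagen prolyl isomerase, had the smallest p of the list, 0.157 before adjustment, with a log2 fold change of -0.22.

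Genes of procollagen export were lower in copper in most cases, by small amounts. Of 10 tested, 9 had a log2 fold change below 0, against 48.6% of all genes, with a median of -0.14. The median within replicates 1, 2 and 3 was -0.09, -0.13 and -0.27. Copper lay wholly below control for SEC23A, SEC24D, SEC31A and TMED2, 4 of 10, against 5.35% of all genes. SEC23A and SEC24D, inner coat proteins of the COPII carriers that load procollagen, were at 271 ± 41.5 against 333 ± 10.2 CPM and 237 ± 26.7 against 277 ± 9.87 CPM. SEC31A, an outer coat protein, was at 404 ± 11.8 against 460 ± 9.61 CPM, a log2 fold change of -0.18 (95% interval -0.38 to 0.01). CREB3L2, a transcription factor that drives this coat, was at 403 ± 92.8 against 486 ± 23.4 CPM. For SEC23A, SEC24D, SEC31A and CREB3L2 the edgeR adjusted p was 1.00, or from 0.503 to 0.585 with the block. In replicates 1 and 2 alone the log2 fold change of SEC23A was -0.16, against -0.30 in all libraries.

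Outside the cell, 7 of 9 genes that trim procollagen were tested, with a median of -0.09. PCOLCE2, an enhancer of that trimming, was at 36.4 ± 5.04 CPM in copper and 28.97 ± 3.44 CPM in control, a log2 fold change of 0.33 (SE 0.14, edgeR adjusted p 1.00, or 0.334 with the block). The proteases FURIN and BMP1 had log2 fold changes of -0.09 and 0.04. Of 7 crosslinking genes, 6 were tested, with a median of 0.01, or -0.219 without copper replicate 3. LOX, the copper-dependent lysyl oxidase, was at 41.6, 50.6 and 72.0 CPM in copper and 51.4, 66.9 and 84.3 CPM in control. It was lower in copper in each pair while the groups overlapped, and its log2 fold change was -0.30 (SE 0.24, edgeR adjusted p 1.00, or 0.379 with the block). LOXL2, at 901 ± 128 and 905 ± 111 CPM, was the most abundant crosslinker, ahead of TGM2 at 599 ± 242 and 568 ± 103 CPM. PXDN, the peroxidase that crosslinks type IV collagen, was at 30.6 ± 4.40 and 34.0 ± 0.987 CPM.

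Of 11 collagen receptor genes, 7 were tested, with a median of -0.11. ITGB1, the common beta chain of the collagen integrins, was at 1587 ± 363 CPM in copper and 1714 ± 24.6 CPM in control. MRC2, an uptake receptor for collagen, had a log2 fold change of -0.05, and ADGRG1, the receptor with the smallest p, had one of -0.29 (95% interval -0.64 to 0.06). Of 16 basement membrane partners, 14 were tested, with a median of 0.0038 and 7 of 14 below 0. AGRN was at 902 ± 168 and 861 ± 123 CPM and LAMC1 at 594 ± 95.3 and 644 ± 26.8 CPM. HSPG2, the proteoglycan perlecan, was at 548 ± 92.7 and 657 ± 84.8 CPM. Only for NID2 did each copper library lie below each control library (1 of 14, against 5.35% of all genes). It was at 37.8 ± 7.06 and 43.3 ± 0.867 CPM.

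Of 15 fibril partners, 8 were tested, with a median of -0.18, or 0.0123 without copper replicate 3. BGN, a small proteoglycan that binds collagen fibrils, was at 0.610, 0.897 and 1.51 CPM in copper and 1.49, 3.19 and 2.62 CPM in control. Only copper replicate 3 and control replicate 1 overlapped, and the log2 fold change was -1.17 (SE 0.41, edgeR adjusted p 1.00, or 0.184 with the block). FN1 was at 1700 ± 692 and 1345 ± 252 CPM and SPARC, a collagen-binding matrix protein, at 1062 ± 62.3 and 1206 ± 145 CPM. Only for FBN1 did each copper library lie below each control library (1 of 8, against 5.35% of all genes). It was at 10.6, 10.6 and 5.50 CPM in copper and 10.8, 12.5 and 11.9 CPM in control. Of 14 genes of collagen breakdown and its inhibitors, 9 were tested, with a median of 0.17, or -0.0340 without copper replicate 3. Of these, 8 had a log2 fold change above 0, where 48.6% of all genes were below 0. Among the 8 were TIMP1 and TIMP2, inhibitors of the metalloproteases, at 0.28 and 0.0039. The exception was the collagenase MMP13, at 1.26 ± 0.277 CPM in copper and 2.17 ± 0.733 CPM in control. Each copper library of MMP13 lay below each control library (1 of 9, against 5.35% of all genes). CTSL, a lysosomal protease, was at 224 ± 32.0 and 181 ± 17.1 CPM, and all its copper libraries lay above all control libraries (1 of 9, against 5.45% of all genes). In replicates 1 and 2 alone edgeR called CTSL (log2 fold change 0.26, adjusted p 0.0495). MMP14, which cleaves fibrillar collagen at the cell surface, and CTSB had log2 fold changes of 0.0036 and 0.17.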

How the data were processed

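RNA was measured in 3 copper-adapted and 3 control cultures of 786-O. The authors deposited 1 table of raw counts per gene. STAR, FastQC and edgeR, and the build GRCh38, are named per the submitters' processing notes. The counting program, its use of strand and its treatment of reads matching several genes are not given in the sources used here. Antisense genes of COL4A2 and COL18A1 had 0 to 13 counts in a library. Rows without a symbol (5 rows, 0.000814% of counts) were left out. Positions are those of the table with 1 added to the start. Of 44 collagen rows, 35 had an end within 1000 bases of RefSeq. The deposited position of COL11A2 did not match its RefSeq position on the same chromosome, and whether this affects its counts was not tested.

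The whole table was fitted in R 4.3.3 with edgeR 4.0.16 (filterByExpr with minimum count 10 and minimum total 15, TMM, robust quasi-likelihood test on group, Benjamini-Hochberg adjustment over all 12944 genes, called under 0.05, prior count 2). SEs and intervals were derived from the unshrunken fold change and the F statistic, while the printed edgeR log2 fold changes are shrunken by the prior count. At low counts the intervals are therefore not centred on the printed values. CPM used TMM library sizes. Lengths and GC content came from the longest protein-coding transcript of GENCODE 29. Alternatives were DESeq2 1.42.0, other scalings and filters, the replicate block, the block with length and GC trends removed (splines with 4 degrees of freedom), replicates 1 and 2 alone, and each library left out. The fit was tested on simulated counts.

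The labels number replicates 1 to 3 in both groups without saying that a number marks a shared day. Deviations from the group mean correlated at 0.46, 0.40 and 0.65 between same-numbered libraries across genes, above the minimum of 0.1. Replicate 3 stood apart in both groups, which can raise all 3 correlations, and differently numbered libraries were not compared. The check therefore cannot show that replicate 1 belongs with 1, or 2 with 2. The numbers were taken as pairs on this limited basis, and blocked values are given where they matter. The collagen genes and all lists were chosen with earlier results of these data known. Collagens with a mean of at least 5 CPM were given library by library and others by range, with COL1A1 added after its values were seen. From each list the member with the smallest p and the 2 most abundant were named, with LOX and PXDN. In addition SEC24D, TMED2, CTSL, NID2, FBN1, TIMP1 and TIMP2 were named, chosen after their values were seen. Promoters came from RefSeq GRCh38.p14, which matched 16 of the 21 reported genes.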

Additional observations from a re-analysis of the deposited data

How the results depend on the processing

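The number of genes called over the whole table was 0 in the edgeR fit on group alone and 22 with the replicate block. It was 215 with the replicate block and length and GC trends removed. Also without the block, it was 111 in replicates 1 and 2 alone, 12 with no filter and 27 with DESeq2. Leaving out one library gave 0 to 15, with 15 only without copper replicate 3. The number of collagen genes called was 3 with the block and trends removed, 1 in replicates 1 and 2 alone and 0 under the other alternatives. With the block alone, no collagen gene and no gene of the pathway lists changed its call. The collagen median stayed below 0 under every alternative and ranged from -0.312 to -0.0817 with one library left out. With one library left out, the list medians ranged from -0.119 to 0.0362 for hydroxylases and chaperones, -0.214 to -0.110 for export, -0.151 to 0.0328 for propeptide processing, -0.219 to 0.117 for crosslinking, -0.214 to -0.0484 for receptors, -0.0725 to 0.0464 for basement membrane partners, -0.298 to 0.0123 for fibril partners and -0.0340 to 0.277 for breakdown, where 1 gene was called in replicates 1 and 2 alone. All but export and receptors changed sign. Genes near 0 changed sign. COL7A1 was at -0.0120 with the block, -0.0986 in replicates 1 and 2 alone and -0.000462 with no filter, COL8A1 at -0.00328 with the block and -0.00643 with no filter, and COL16A1 at -0.0340 in replicates 1 and 2 alone. With one library left out, log2 fold changes ranged from -0.194 to 0.00433 for COL4A2, -0.244 to 0.0787 for COL6A1, -0.572 to 0.0829 for COL6A3, -0.304 to 0.222 for COL7A1, -0.147 to 0.165 for COL8A1, -0.924 to 0.690 for COL13A1 and -0.473 to 0.551 for COL16A1. What caused these sign changes was not tested. In the alternatives that kept all libraries or replicates 1 and 2, 142 results on single collagens kept direction and call, 4 became called and 6 changed sign. Genes under 1 CPM rest on few counts.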

Other observations

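Promoter windows of 300 bases (250 before to 50 after the start, RefSeq GRCh38.p14) were found for 16 of the 21 reported collagen genes. Their median GC content was 67.3%, against 58.3% for all windows, and ranged from 40.7% for COL17A1 to 86.7% for COL18A1. GGGCGG or its reverse complement was present in 12 of the 16, against 44.6% of all 27305 windows. TATAAA or its reverse complement was present in 5 (COL6A2, COL6A6, COL7A1, COL13A1 and COL17A1), against 11.95% of all windows. CCAAT or its reverse complement was present in 3 of the 16 (COL4A1, COL4A2 and COL17A1), against 35.7%. The windows of COL4A1 and COL4A2 overlap, so the CCAAT and GGGCGG matches between their starts are counted for both genes. The letters TGACTCA or their reverse complement were in 0 of the 16 windows, against 4.92% of all. This says nothing about the factor that binds them. COL4A3 and COL4A4, also head to head, lie 418 bases apart on chromosome 2 by the deposited positions. RefSeq places the end of COL4A4 at 227164488 and not at the deposited 227164205, so that distance depends on the annotation. COL4A4 had 3 to 10 counts in a library.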
